A study of Mus musculus with 8 samples.

Results

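Mest, Copg2 and 4 genes beside them on mouse chromosome 6 (Cep41, Mir335, Tsga13 and Klf14) were followed in AtT-20 cells, a line of pituitary corticotropes. These 6 genes, of 55401 in the deposited tables, were chosen by name. Mest and Copg2 were picked because they stood among the genes with the highest rise in these same libraries, so their rise is described here without a test. The 4 others lie near them, but not every gene near them was taken. All 6 were chosen with earlier results of these data known. Mest and Copg2 stood higher at 24 h than at 0 h and higher again at 48 h and 72 h. Klf14 also stood higher at each later time and was called higher at 72 h, by a much smaller margin and in 6 of 14 fits. Cep41 was not called at any time, and Mir335 and Tsga13 were near 0.

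All 8 libraries came from AtT-20 cells of genotype ER-Pax7, which carry an introduced form of the transcription factor Pax7 that tamoxifen activates. There were 4 groups, Tam 0 h, Tam 24 h, Tam 48 h and Tam 72 h, with 2 libraries each (replicates 1 and 2), and RNA was sequenced after depletion of ribosomal RNA. The labels give neither the promoter that drives ER-Pax7 nor whether the cells are 1 clone or whether replicates were separate cultures, so errors and p-values may reflect technical spread alone. Since every group carries ER-Pax7 and no vehicle at matched times was analysed here, activation of ER-Pax7, tamoxifen itself and time in culture cannot be told apart.

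Imprinted genes are expressed from the chromosome inherited from 1 parent, under the control of DNA methylation laid down in the germ line. Mest, also known as Peg1, encodes a protein of the alpha/beta hydrolase fold family. It is expressed from the paternal copy, and its promoter carries the maternal methylation that controls this imprinted domain; Copg2 and Klf14 are expressed mainly or wholly from the maternal copy in some mouse tissues. Copg2 encodes a gamma subunit of coatomer, the COPI coat of vesicles that carry cargo from the Golgi back to the endoplasmic reticulum. Cep41 is a centrosomal protein needed for glutamylation of ciliary tubulin, Klf14 an intronless gene of the Krüppel-like transcription factor family, Tsga13 a gene named for its expression in testis, and Mir335 the gene of miR-335, carried in an intron of Mest. The deposited values do not separate the parental copies, so nothing here measures imprinting, and DNA methylation was not analysed here.

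The 2 mature products of Mir335 are shown because their host gene is at the centre of the neighbourhood. They come from the plus strand of chromosome 6, at 30741314 to 30741336 for the 5p arm and 30741354 to 30741375 for the 3p arm (RefSeq, GRCm38.p6), and capitals mark the seed, bases 2 to 8.
miR-335-5p: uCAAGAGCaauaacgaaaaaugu
miR-335-3p: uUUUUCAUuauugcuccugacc
No other mature mouse miRNA in the RefSeq table had either seed.

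The sequences just before the starts of Mest and Copg2 are shown as a description of their CG content. Methylation of these stretches was not analysed here, and any link to the rise of either gene was not tested. Capitals mark each CG, the dinucleotide that DNA methylation modifies. The Mest stretch is the 250 bases at chr6:30737800-30738049, plus strand, before its downstream start. The Copg2 stretch is the 186 bases at chr6:30896795-30896980, minus strand, that separate the Copg2 start from the end of Tsga13.
Mest: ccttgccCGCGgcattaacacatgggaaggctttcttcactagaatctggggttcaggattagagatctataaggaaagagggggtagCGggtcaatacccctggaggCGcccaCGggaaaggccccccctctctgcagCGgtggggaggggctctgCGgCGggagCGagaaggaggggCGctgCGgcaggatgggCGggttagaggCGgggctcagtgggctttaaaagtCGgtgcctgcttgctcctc
Copg2: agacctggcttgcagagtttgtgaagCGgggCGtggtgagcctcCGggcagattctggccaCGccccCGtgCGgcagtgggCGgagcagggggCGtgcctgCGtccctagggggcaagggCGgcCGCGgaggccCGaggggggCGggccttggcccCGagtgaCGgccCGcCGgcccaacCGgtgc
These stretches hold 14 and 19 CG. In the RefSeq windows of 300 bases, 250 before and 50 after a start, the downstream Mest start had 17 CG, Copg2 25, Cep41 19, an upstream Mest start 8 and Tsga13 2, against a median of 7 over 32817 mouse windows. The Mest count exceeded that of 68.6% of windows, the Copg2 count that of 81.6% and the Tsga13 count that of 14.1%. The letters TAAT, the core bound by homeodomains and searched on both strands because Pax7 carries a homeodomain, occurred 2 times in the downstream Mest window, 1 time each in the upstream Mest window and those of Cep41 and Tsga13, and 0 times in that of Copg2; 58.0% of all windows held them. Such a match is a description of the letters and not a binding site. Klf14 and Mir335 were not in the promoter table.

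The line was first checked against its markers. Pomc, the corticotrope hormone precursor, had a signal (mean read coverage over the exons of a gene, scaled by the authors) between 499 and 679 in the 8 libraries; the corticotrope factor Tbx19 had 16.3 to 23.2, Neurod1 3.93 to 5.08, Pitx1 1.83 to 2.14 and the prohormone convertase Pcsk1 15.4 to 24.5. The growth hormone gene Gh reached at most 0.0080, Lhb of gonadotropes at most 0.236, and Prl, Tshb and Fshb were at 0 in all libraries. Crhr1, the corticotropin-releasing hormone receptor of corticotropes, was at most 0.129. Pax7, which the introduced construct can contribute to, lay between 12.6 and 14.4. Summed signal ran from 164236 to 178548 per library and 9516 to 9608 genes reached a signal of 1. The number of reads is not given, so no counting interval can be given. In such bulk samples a change in the share of cells and a change of RNA per cell cannot be told apart.

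Mest (ENSMUSG00000051855.15) lies on the plus strand of chromosome 6 at 30723547 to 30748465 (GRCm38), with 18 merged exons of 3945 bases. Its signal was 2.979 and 3.005 in the 2 libraries at 0 h, 7.39 and 8.02 at 24 h, 9.16 and 9.44 at 48 h, and 10.75 and 10.38 at 72 h. Both libraries of each time stood above both of the time before. The means were 2.99 ± 0.0184, 7.70 ± 0.445, 9.30 ± 0.198 and 10.6 ± 0.260 (SD, n = 2), or 2.57, 3.11 and 3.53 times the 0 h mean. On the log2(signal + 1) scale, which understates the change of low genes, the differences from 0 h were 1.123, 1.37 and 1.53 (SE 0.05 at 72 h).

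Copg2 (ENSMUSG00000025607.15), on the minus strand at 30747554 to 30896794 with 27 merged exons of 5121 bases, runs towards Mest, and the 2 genes overlap at their 3′ ends. Its signal was 2.82 and 2.72 at 0 h, 5.76 and 6.06 at 24 h, 6.83 and 6.75 at 48 h, and 7.453 and 7.447 at 72 h. The libraries again did not overlap between any 2 successive times. The mean was 2.13, 2.45 and 2.69 times that at 0 h, with log2 differences of 0.87, 1.05 and 1.17. The rise from 0 h to 24 h made up 62.2% of the rise to 72 h for Mest and 67.1% for Copg2. By 48 h the shares were 83.3% and 85.9%, so each later step was smaller than the first: Mest added 4.71 signal units by 24 h, then 1.60 and then 1.27, and Copg2 added 3.14, then 0.883 and then 0.658.

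**Figure D1:**
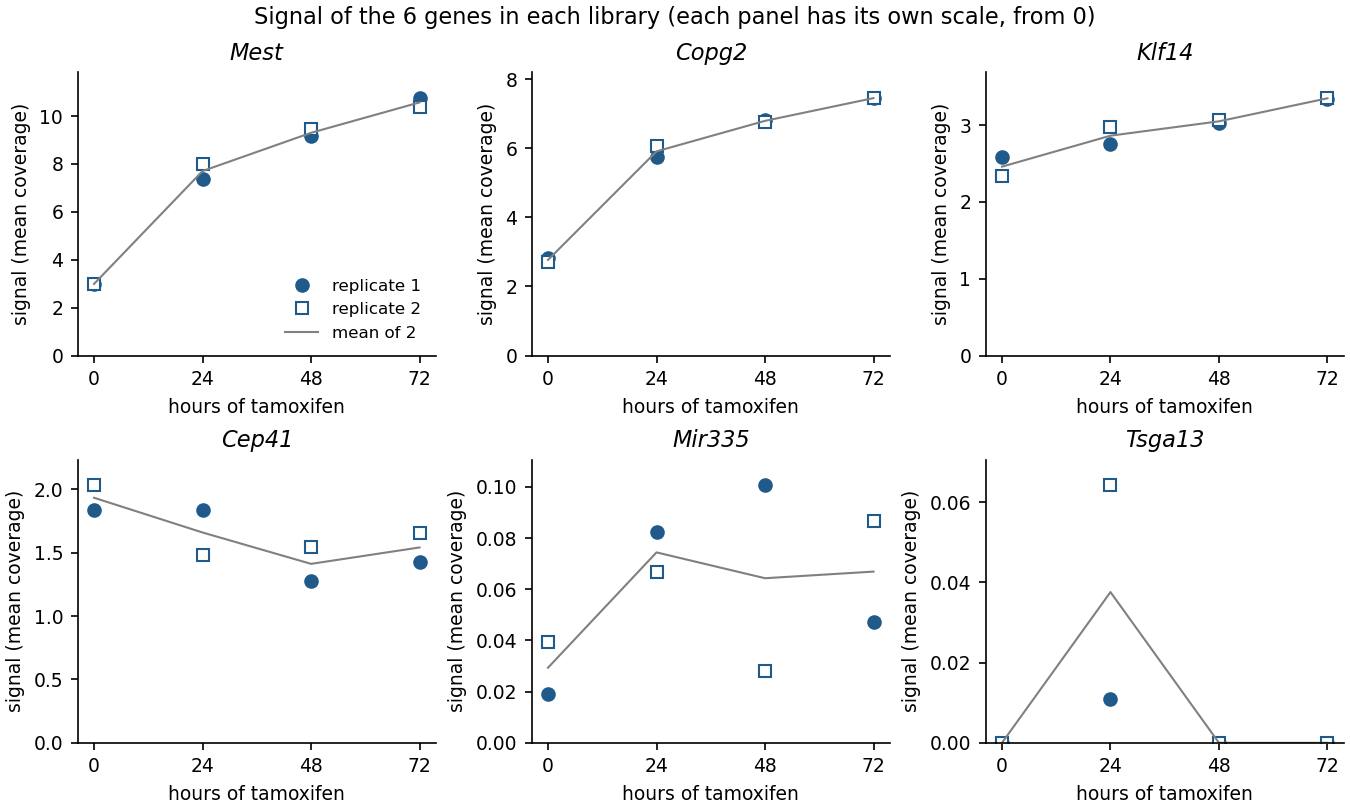
Signal (mean coverage, vertical axis from 0, one scale per panel) of the 6 genes against hours of tamoxifen; circles are replicate 1, squares replicate 2 and the line joins the means of 2. Mest and Copg2 rise most between 0 and 24 h, Klf14 goes from 2.34 and 2.58 to about 3.35, Cep41 lies between 1.28 and 2.03, and Mir335 and Tsga13 stay at or under 0.101.

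The exonic bases that Mest and Copg2 share form 1 run of 912 bases, at 30747554 to 30748465, annotated as 3′ UTR in both genes. It is 23.1% of the Mest exons and 17.8% of those of Copg2, leaving 3033 and 4209 bases of their own. The sources used here do not say whether the authors' coverage used the strand of reads, and a read in this run may count for both genes. The total coverage of each gene (signal times exonic bases) was therefore compared, since coverage of the shared run drops out of the difference if it counts equally in both. Mest minus Copg2 was -2679 and -2073 at 0 h, -346 and 596 at 24 h, 1152 and 2655 at 48 h, and 4247 and 2828 at 72 h. The 0 h libraries were the lowest and the 72 h libraries the highest.

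The mean difference went from -2376 ± 428 at 0 h to 3538 ± 1003 at 72 h (SD, n = 2), a rise of 5913. If the bases of Copg2 alone did not fall, the bases of Mest alone rose, with equal counting, by at least 0.825 signal units on average at 24 h, 1.41 at 48 h and 1.95 at 72 h, which is a bound under that condition and not an estimate. For Copg2 no such bound follows: its summed rise was 86.5%, 82.8% and 80.2% of that of Mest at the 3 times, and if all of it lay in the shared run, coverage there would have risen by 17.6, 22.6 and 26.3. Per-base coverage was not analysed here, so how much of the Copg2 rise lies outside the shared run was not tested. The ratio of Mest to Copg2 signal was 1.08 ± 0.0338 at 0 h and then 1.30 ± 0.0284, 1.37 ± 0.0402 and 1.42 ± 0.0341 (SD, n = 2).

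**Figure D2:**
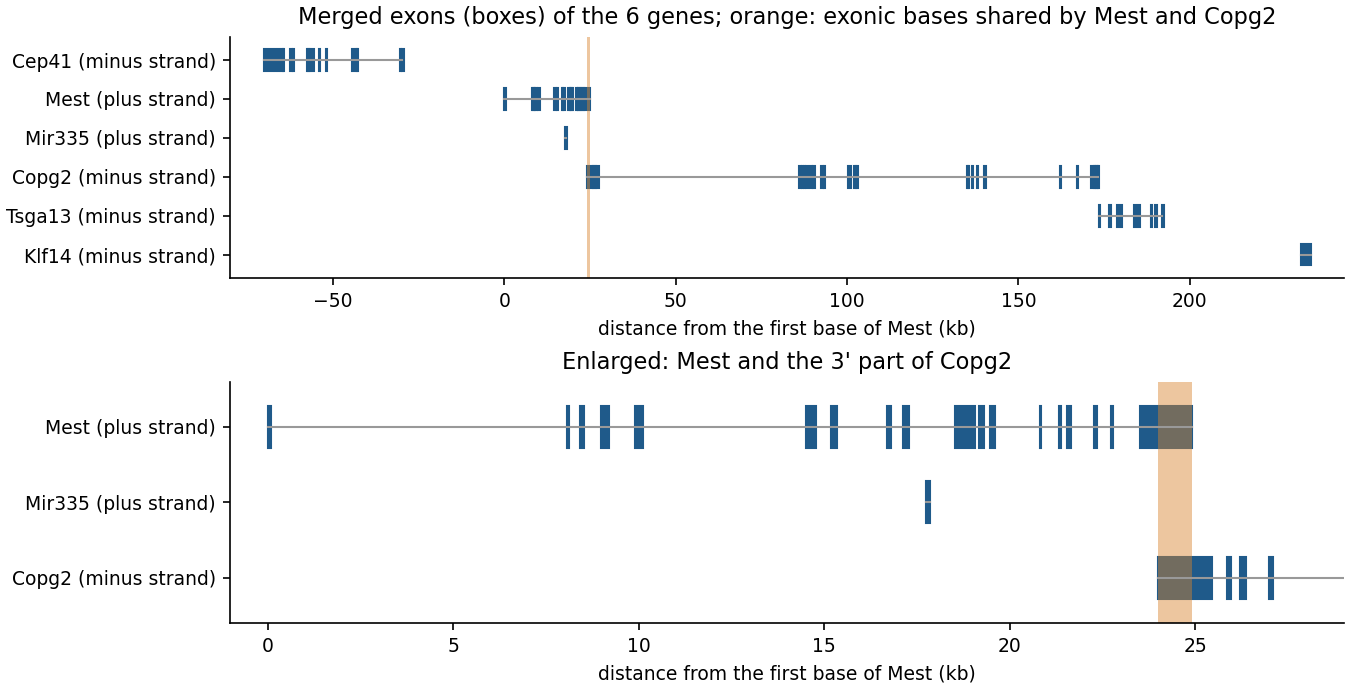
Merged exons (boxes, narrow ones drawn at a minimum width) of the 6 genes against distance from the first base of Mest in kb, above, and the Mest gene enlarged, below. The orange band marks the 912 shared bases, which lie at the 3′ ends of both Mest and Copg2; Mir335 lies between Mest exons.

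**Figure D3:**
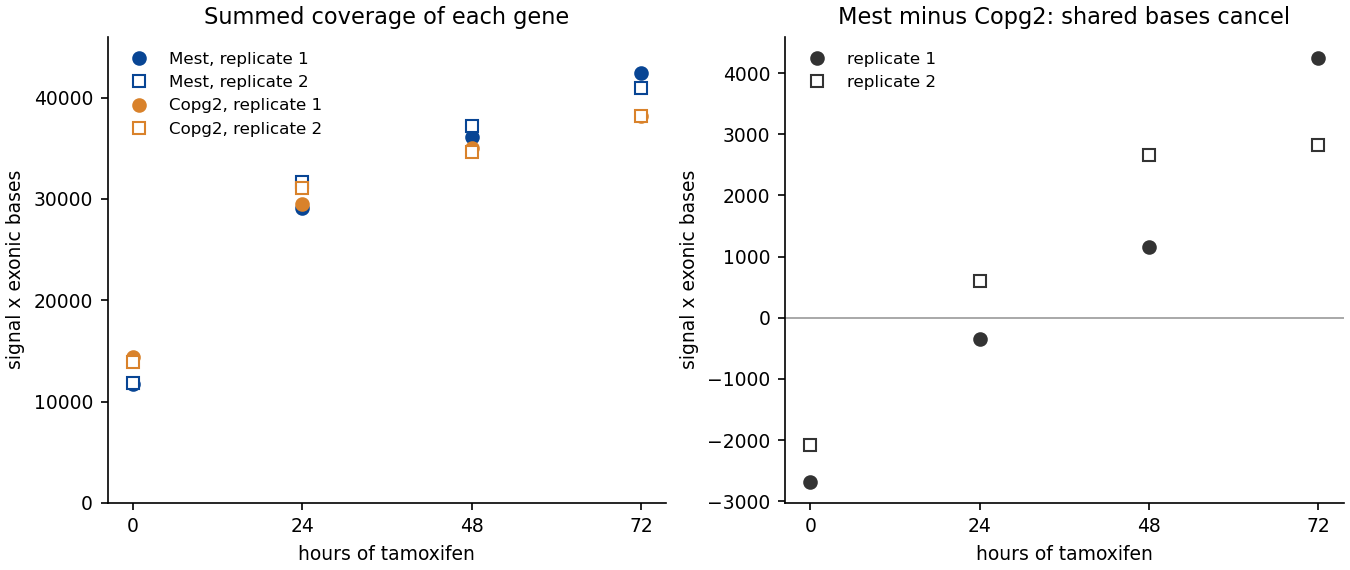
Left, summed coverage (signal times exonic bases) of Mest (blue) and Copg2 (orange) in each library against hours of tamoxifen; right, the difference Mest minus Copg2, in which bases shared by both cancel if counted equally. The difference runs from -2679 and -2073 at 0 h to 4247 and 2828 at 72 h.

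Klf14 (ENSMUSG00000073209.4), a single exon of 3056 bases on the minus strand at 30956023 to 30959078, lies 59.2 kb beyond Copg2 and shares no exonic base with the other 5 genes. Its signal was 2.58 and 2.34 at 0 h, 2.75 and 2.97 at 24 h, 3.03 and 3.07 at 48 h, and 3.346 and 3.353 at 72 h. As for Mest and Copg2, both libraries of each time lay above both of the time before; 72 of 9606 tested genes (0.75%) had this order, and 34 (0.354%) had the reverse one, which none of the 6 had. The mean was 1.16, 1.24 and 1.36 times that at 0 h, and 45.3% of the rise to 72 h had occurred by 24 h.

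The limma fit took in genes whose signal averaged 1 or more, and of the 6 genes this left Mest, Copg2, Klf14 and Cep41. Klf14 had log2 differences of 0.16, 0.23 and 0.33 from 0 h (SE 0.05), with limma adjusted p = 0.295, 0.154 and 0.0293, and so was called higher at 72 h. The share of all tested genes called was 0.229% at 24 h, 0.552% at 48 h and 2.01% at 72 h. The Klf14 call was made in 6 of 14 fits: its limma adjusted p was 0.142 with no filter on low values and ran up to 0.201 with single libraries left out, where either library of 0, 48 or 72 h ended the call. With the replicate number as a block it was 0.0521.

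Cep41 (ENSMUSG00000029790.16), on the minus strand at 30653457 to 30693749, lies 29.8 kb from Mest on the other side. Its signal was 1.83 and 2.03 at 0 h, 1.84 and 1.48 at 24 h, 1.28 and 1.54 at 48 h, and 1.42 and 1.66 at 72 h. The means were 1.93 ± 0.140, 1.66 ± 0.250, 1.41 ± 0.186 and 1.54 ± 0.165 (SD, n = 2). The log2 differences of -0.14, -0.28 and -0.21 (SE 0.09) did not pass the test, with limma adjusted p = 0.522, 0.289 and 0.319.

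Mir335 is a precursor gene at 30741299 to 30741396 that lies wholly in a Mest intron. Its signal was 0.0193 and 0.0395 at 0 h, 0.0822 and 0.0666 at 24 h, 0.101 and 0.0280 at 48 h, and 0.0471 and 0.0868 at 72 h. These are 0.297% to 1.31% of the Mest signal of the same library and only 1.49 to 7.40 of the steps in which the values of short genes come. The 48 h libraries held the highest of the 8 values and the second lowest. The values are coverage of the precursor position and do not measure the mature miRNAs shown above. Tsga13, at 30896981 to 30915573 on the minus strand, was at 0 in 6 libraries and at 0.0110 and 0.0643 at 24 h. It is read from the same strand as Copg2, and its end lies 186 bases from the Copg2 start.

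The wider window, 1 Mb to either side of Mest and Copg2, held 62 genes. Of the 60 other than Mest and Copg2, 8 were at 0 in every library, 46 had a mean signal under 0.2 and 11 were tested. None of the 11 was called at 24 or 48 h and Klf14 alone at 72 h. At a limma unadjusted p under 0.05 there were 1, 2 and 2, where 13.2%, 10.5% and 15.7% of all tested genes had one. These were Klf14 at each time and Cep41 at 48 and 72 h. The median log2 differences of the 11 were 0.00, 0.05 and 0.03, against 0.01, 0.00 and 0.01 over all tested genes.

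Like Cep41, the 9 other tested neighbours apart from Klf14 were not called at any time. Their largest log2 differences from 0 h were -0.18 for Ube2h and 0.15 for Gm13835, both at 24 h. On the Cep41 side at 72 h, the log2 difference was 0.05 for Tmem209, a nuclear envelope protein gene, 0.03 for Klhdc10, -0.07 for Zc3hc1, 0.04 for the ubiquitin-conjugating enzyme gene Ube2h, -0.02 for the transcription factor gene Nrf1 and 0.02 for Ahcyl2. On the Klf14 side it was 0.05 for Gm13835, 0.01 for 2210408F21Rik and 0.07 for Mkln1. These 9 genes had limma adjusted p-values of at least 0.418 at every time. Levels stood between 7.60 and 9.64 for Gm13835, and between 0.990 and 4.14 for the other 8.

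**Figure D4:**
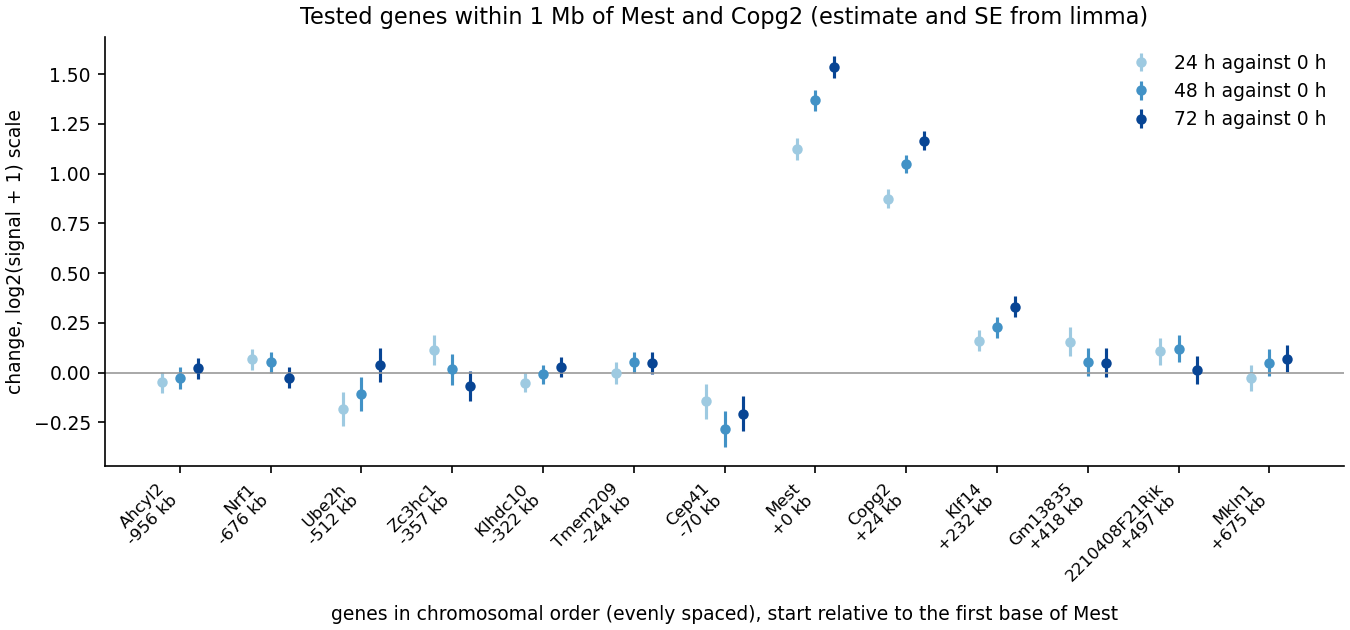
Estimated difference from 0 h (points, log2(signal + 1) scale) with its SE (bars) at 24, 48 and 72 h for each tested gene within 1 Mb, evenly spaced in chromosomal order, with the distance of each gene's start from the first base of Mest. Mest and Copg2 stand at 0.87 to 1.53, Klf14 at up to 0.33, and the others between -0.28 and 0.15.

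Copg2 was next set beside the genes whose products it works with. The list held 26 genes mainly of coatomer, the Arf GTPases that recruit it and their regulators, and the cargo receptors of the p24 (Tmed) and Kdelr families, of which 24 were tested. Copg2 was chosen for its rise and is not counted. Of the 23 others, none was called at any time; 2, 1 and 2 had an unadjusted p under 0.05 (of all tested genes, 13.2%, 10.5% and 15.7% had one), and their medians were -0.03, -0.02 and 0.00; at 72 h they ran from -0.08 to 0.14.

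Among coatomer subunits, Copa (alpha) was at 13.7 ± 0.352 at 0 h and 15.3 ± 0.00243 at 72 h (SD, n = 2; log2 0.14, limma adjusted p = 0.230). Copb1 (beta) stood at 6.79 ± 0.104 and 6.90 ± 0.0852, Copb2 (beta prime) at 6.50 ± 0.126 and 6.66 ± 0.0617, and Arcn1 (delta) at 7.09 ± 0.551 and 7.04 ± 0.00195. Cope (epsilon) stood at 6.88 ± 0.814 and 6.74 ± 0.479, and the zeta subunits Copz1 and Copz2 at 3.90 ± 0.122 and 4.13 ± 0.226, and 0.529 ± 0.0754 and 0.531 ± 0.169. None of these was called; Copz2 lay below the level tested.

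Copg1 encodes the other gamma subunit; a coatomer holds 1 of the 2. Its signal was 4.78 and 5.12 at 0 h, 4.15 and 4.21 at 24 h, 5.30 and 4.68 at 48 h, and 5.21 and 5.34 at 72 h, with log2 differences of -0.20, 0.01 and 0.08 (limma adjusted p = 0.274, 0.989 and 0.624). The 24 h libraries were the lowest and those of 48 h overlapped those of 0 h. Signal is per exonic base, so levels of the 2 genes can be set side by side: Copg2 made up 35.9% ± 1.70 of the sum of both at 0 h and then 58.5% ± 0.619, 57.7% ± 1.95 and 58.5% ± 0.465 at the 3 later times (SD, n = 2). The groups of 24, 48 and 72 h did not overlap that of 0 h. These shares include the run that Copg2 has in common with Mest, where reads of Mest may count for Copg2. How much of the shift in share lies in that run was not tested, so it cannot be read as a shift between the 2 gamma subunits.

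**Figure D5:**
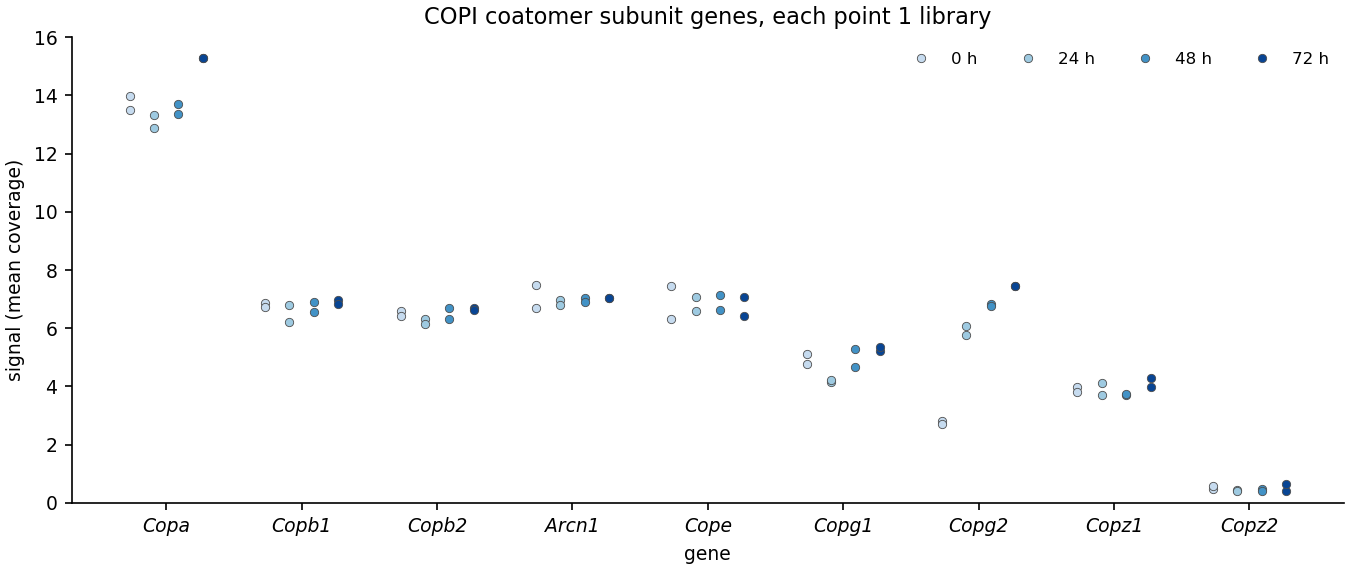
Signal (mean coverage, vertical axis from 0) of the 9 coatomer subunit genes, each point 1 library, shaded from 0 h (light) to 72 h (dark). Copg2 goes from 2.72 and 2.82 at 0 h to about 7.45 at 72 h, above its counterpart Copg1, which lies between 4.15 and 5.34. The Copg2 values include the run shared with Mest.

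Genes that share a pathway or family with the other neighbours were counted in the same fit. Of 17 tubulin glutamylation genes, the setting in which Cep41 works, 6 were tested, Cep41 included, and none was called at any time. Of these 6, 4, 5 and 5 were higher than at 0 h. A limma unadjusted p under 0.05 was found for 1, 3 and 4, where 13.2%, 10.5% and 15.7% of all tested genes had one. Cep41, which was lower, was among those at 48 and 72 h (limma unadjusted p = 0.0141 and 0.0497). Of 17 Klf genes 10 were tested. Klf14 at 72 h was the 1 call, where 2.01% of all tested genes were called. At each time 7 of the 10 were lower than at 0 h, with a median of -0.08 at 72 h against 0.01 over all tested genes. Of the 10, 4 had a limma unadjusted p under 0.05 at each time, Klf14 among them (0.0191, 0.00331 and 0.000376). Of all tested genes, 13.2%, 10.5% and 15.7% had one. Klf16, a close relative of Klf14, went from 1.31 ± 0.0585 to 1.20 ± 0.0318 and was not called. Klf5 was lowest at 24 h, at 3.08 and 3.38 against 4.59 and 4.54 at 0 h (log2 -0.40, limma adjusted p = 0.0897).

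Of 6 genes reported elsewhere as targets of miR-335, only Ptprn2 and Sox4 were tested. Of all tested genes, 2.01% were called at 72 h. The mature miRNAs were not measured, and any link of these genes to miR-335 was not tested. Sox4, a transcription factor gene, was called lower at 72 h: its signal was 3.54 and 3.28 at 0 h and 2.30 and 2.41 at 72 h (log2 -0.39, limma adjusted p = 0.0390). The call was lost with no filter (limma adjusted p = 0.238), with the replicate block (0.0593) and without either library of 0, 48 or 72 h (0.0772 to 0.246). Ptprn2, a gene of secretory granules, went from 2.38 ± 0.0819 to 2.67 ± 0.000282 and was not called.

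Other imprinted genes made a list of 53, of which 17 were tested. All but Cpa4, which lies in the window above and was not tested for its low signal, are outside the window. None was called higher at 24 or 48 h, 1 was called lower at each time and 2 higher at 72 h. Of all tested genes, 0.229%, 0.552% and 2.01% were called at the 3 times. Of the 17, 7, 6 and 7 had a limma unadjusted p under 0.05, where 13.2%, 10.5% and 15.7% of all tested genes had one. The medians were 0.07, 0.07 and 0.04. Ddc, the aromatic amino acid decarboxylase gene beside imprinted Grb10, was the gene called lower: it went from 13.3 and 12.5 at 0 h to 7.26 and 7.29 at 24 h, 7.12 and 6.31 at 48 h, and 4.75 and 4.84 at 72 h. Its calls at 24 and 48 h were lost without either 0 h library (limma adjusted p = 0.137 and 0.117 at 24 h, 0.0760 and 0.0654 at 48 h) and with no filter (0.0937 and 0.0685), and at 24 h also without 24 h replicate 1 (0.0548).

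Nap1l5, a retrogene of the nucleosome assembly protein family, rose from 4.30 and 4.34 to 6.06 and 6.23 at 72 h (log2 0.43, limma adjusted p = 0.0224). Rtl1, a gene derived from a retrotransposon, rose from 4.97 and 4.79 to 6.39 and 6.82 (log2 0.37, limma adjusted p = 0.0232). Both calls were lost with no filter (0.157 for Nap1l5 and 0.124 for Rtl1) and without either library of 0, 48 or 72 h (0.0580 to 0.172 and 0.0580 to 0.186), and that of Nap1l5 also with quantile normalization (0.0508). Mest at 72 h, at 3.53 times its 0 h mean, stood further from 0 h than either gene, at 1.42 and 1.35 times. Mest was chosen for its rise, so this order is a description.

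Over the 8 libraries, the pattern most like that of Mest among 9606 genes was that of Copg2, by Pearson's r on log2(signal + 1) (r = 0.999). The 2 share bases, and all genes share the same 8 libraries and 4 times, so these values are a description. Among the next were Sumo3, a ubiquitin-like modifier gene (r = 0.988), the homeobox gene Msx1 (0.985) and Ppp1r13b (0.985). Sumo3 went from 5.19 and 5.36 to 7.05 and 7.27. The least alike were Pex5l (r = -0.993), which went from 7.35 and 7.43 to 3.89 and 3.75, the interleukin receptor gene Il13ra1 (-0.990) and the phosphatase gene Dusp18 (-0.985). Klf14 ranked 73rd (r = 0.929) and Cep41 had r = -0.761.

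Ranked by log2 difference from the highest, Mest was 16th, 18th and 19th of 9606 genes at 24, 48 and 72 h. Copg2 was 17th, 22nd and 23rd, and Klf14 803rd, 280th and 187th. Mest and Copg2 were chosen for their rise, so their high ranks follow from that choice. The genes just above Mest at 72 h were Lars2, Gm15564 and Gm24187, and those just below were mt-Rnr1, mt-Rnr2 and Rgs4. The 2 libraries of 72 h lay far apart in 5 of these 6: Lars2, for example, had 0.837 and 37.3, and the mitochondrial ribosomal RNA gene mt-Rnr1 had 1.23 and 25.1. They also lay far apart in every other gene ranked above Mest at 72 h. Rgs4, a regulator of G protein signalling, had 3.74 and 3.27 against 0.920 and 0.853 at 0 h, and the 2 values of Mest, 10.75 and 10.38, were likewise close together.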

How the data were processed

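RNA libraries of AtT-20 ER-Pax7 cells after 0, 24, 48 and 72 h of tamoxifen were analysed, 2 per time, grouped by their titles. The labels' molecule field names genomic DNA, while their extraction protocol names RNA. HISAT2 2.2, SAMtools 1.12 and deepTools 3.5 are named with builds mm10 and GRCm38, per the submitters' processing notes. The deposited values are taken here as a signal, mean coverage over merged exons per gene, scaled by the authors by a rule not given in the sources used here; read depth and use of strand are also not given. Exon positions were checked against GENCODE M21.

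Genes with a mean of at least 1 (9606) were tested as log2(signal + 1) with limma 3.58.1 in R 4.3.3, group as the only term, an intensity trend and Benjamini-Hochberg adjustment over all tested genes at 0.05, on 4 residual degrees of freedom. The fit was tested on simulated data, with 50 genes raised at 72 h by each of 4 folds on the log2(signal + 1) scale. It called 23 of 50 at 1.25-fold, 39 at 1.5-fold, 48 at 2-fold and 50 at 3-fold, with 4 false calls. A gene with a small change can therefore go uncalled. The plan foresaw per-million units, and its pseudocount and filter were kept. The members and lists were chosen with earlier results of these data known. Named genes were the 6 members, tested genes within 1 Mb, the 9 coatomer genes, called members of any list, the 5 highest (1 of which is not reported here) and 3 lowest correlations with Mest, and the 3 genes on each side of Mest in rank at 72 h; marker genes, Ptprn2, Klf5, Klf16 and Podxl were added.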

Additional observations from a re-analysis of the deposited data

How the results depend on the processing

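Mest and Copg2 kept their direction under all 13 alternatives (another pseudocount, no filter, quantile normalization, the replicate block, no intensity trend and each of 8 libraries left out), and no called value changed sign. Sox4 at 24 h, not called, went from -0.06 to 0.02 without 24 h replicate 2. With a pseudocount of 0.1 the log2 differences at 24, 48 and 72 h were 1.33, 1.60 and 1.79 for Mest and 1.07, 1.26 and 1.40 for Copg2, since a smaller pseudocount shrinks low values less. With single libraries left out they ran from 1.07 to 1.18, 1.35 to 1.39 and 1.51 to 1.56 for Mest, and from 0.84 to 0.91, 1.03 to 1.07 and 1.15 to 1.18 for Copg2. The lower bound on the rise of Mest's own bases, left out library by library as a check chosen after seeing the data, ran from 0.669 to 0.980 at 24 h, 1.16 to 1.66 at 48 h and 1.72 to 2.18 at 72 h. Among the other tested genes of the window, the 1 call at 72 h became 0 with no filter, 0 with the replicate block and 0 to 1 with libraries left out. Leaving out Copg2, which was chosen for its rise and is not counted, no COPI gene was called under any of them. Calls in the other lists became 0 at 24 h, 0 at 48 h and 1 at 72 h with no filter, 3 at 72 h with the replicate block, and with libraries left out 0 to 3, 0 to 2 and 1 to 7. Deviations of same-numbered libraries correlated at 0.18, 0.34, -0.02, 0.40, 0.10 and 0.07 between pairs of times. These values do not settle whether same-numbered libraries belong together. The main fit left the number out and the block is given as an alternative, under which the 72 h calls of Klf14 and Sox4 were lost. Unknown depth and 2 libraries per time limit the precision of every value, most of all for genes under a signal of 1.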

Other observations

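Below the level tested, Podxl, the podocalyxin gene 796 kb from the first base of Mest, was chosen after its values were seen. Its signal was 0.553 and 0.480 at 0 h, 0.273 and 0.313 at 24 h, 0.255 and 0.260 at 48 h, and 0.211 and 0.225 at 72 h. The means were 0.516 ± 0.0515, 0.293 ± 0.0278, 0.257 ± 0.00366 and 0.218 ± 0.00982 (SD, n = 2). In the limma fit without a filter on low values it was not called, with adjusted p = 0.251, 0.149 and 0.0758 at the 3 times.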
